A study of Homo sapiens with 6 samples.

Results

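Aminoacyl-tRNA synthetases are the enzymes that load each amino acid onto its own tRNA. Their genes were chosen by symbol, as the letter of an amino acid followed by ARS with or without a number, together with EPRS1, FARSA and FARSB, and 38 of the 59248 gene rows met that rule. They fell into 21 genes on the cytosolic side and 17 mitochondrial genes. The cytosolic side held 18 genes for cytosolic enzymes, GARS1 and KARS1, which each make a cytosolic and a mitochondrial enzyme from the same gene, and TARS3, a cytosolic relative of TARS1. RNA was sequenced in bulk from Jurkat, an established line derived from a human T-cell leukemia. The OE group held 3 libraries of cells labelled PDCD1-28 OE, which overexpress a splice form of PDCD1, the gene of the PD-1 receptor, that keeps the first 28 bases of intron 2. The vector group held 3 libraries labelled vector, with no further description. Both groups share the culture name Jurkat KO-1, and the labels state neither what was knocked out nor whether the cells are 1 clone. The labels do not say that the libraries of a group came from separate cultures, so the p-values below reflect no more than library-to-library spread, part or all of which may be technical.

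In mammals a nuclear gene set serves the cytosol and a second nuclear gene set serves the mitochondrion, where the enzymes load tRNAs encoded by mitochondrial DNA. The enzymes belong to a pair of unrelated catalytic folds, class I and class II. Several cytosolic enzymes are held with the scaffold proteins AIMP1, AIMP2 and EEF1E1 in a multisynthetase complex. When uncharged tRNA builds up, the kinase GCN2 (EIF2AK4) phosphorylates eIF2, translation of the transcription factor ATF4 increases, and ATF4 is known to bind C/EBP-ATF elements in genes of amino acid metabolism, several synthetase genes among them.

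Totals per library were 62635749, 72314037 and 61486369 estimated counts in OE libraries, against 59911578, 84220970 and 69825013 in vector libraries. Each of the 38 genes had between 454 and 47706 counts in each library, and all 38 passed the filter on low counts. PDCD1 had 945, 1059 and 807 counts in OE libraries, against 14, 18 and 15 in vector libraries, and this gene-level count does not separate the splice form from full-length PDCD1. All 10 T-cell markers were at 1 CPM (the count scaled to the size of the library) or more in every library, with summed levels of 2323 to 2369 CPM in OE libraries and 2649 to 2808 CPM in vector libraries. The markers differed among themselves: CD2 lay at 3.98 to 4.58 CPM in OE libraries and 23.6 to 26.7 CPM in vector libraries, CD7 at 16.4 to 18.4 CPM in OE libraries and 68.82 to 84.03 CPM in vector libraries, and TRBC1 at 544.1 to 565.0 CPM in OE libraries and 392.3 to 444.8 CPM in vector libraries. None of 3 B-cell, 3 myeloid and 4 epithelial markers reached 1 CPM in every library. In bulk RNA, fewer cells of a type and less RNA per cell cannot be told apart. Vector replicate 2, the deepest library, held the lowest vector level of AARS1, MARS1, CARS1, SARS1, YARS1, GARS1 and IARS1, among other genes. Log2 fold changes without it are given below for these genes and for several others.

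The promoter matches are shown first because a later description splits the cytosolic genes by them. RefSeq windows from 250 bases before to 50 bases after the transcription start (assembly GRCh38.p14) were at hand for 30 of the 38 genes: 16 on the cytosolic side and 14 mitochondrial. LARS1, VARS1, YARS1, TARS3, AARS2 and VARS2 were among those with no entry. The search used the C/EBP-ATF element TGATGNAAT and its core TGATGNAA, which lies within it, on both strands. The core was present in 7 of the 16 cytosolic promoters (43.75%) and in 1 of the 14 mitochondrial promoters (7.14%), that of YARS2. It was present in 2.77% of the promoters of 12146 tested genes and in 4.46% of all 27305 genes of the promoter table. The longer element was present in TARS1 and GARS1, in none of the 14 mitochondrial promoters, and in 0.741% of tested genes. The 8 matches are printed below with 10 flanking bases on each side, on the strand of the gene, with the 8 matched bases in capitals. A match says only that these letters occur in the window.

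AARS1, chr16:70289676-70289703, minus strand: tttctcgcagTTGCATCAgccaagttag
CARS1, chr11:3057408-3057435, minus strand: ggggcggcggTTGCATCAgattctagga
IARS1, chr9:92293693-92293720, minus strand: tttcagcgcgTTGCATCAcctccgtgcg
MARS1, chr12:57488054-57488081, plus strand: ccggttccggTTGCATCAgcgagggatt
GARS1, chr7:30594835-30594862, plus strand: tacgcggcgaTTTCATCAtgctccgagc
TARS1, chr5:33440957-33440984, plus strand: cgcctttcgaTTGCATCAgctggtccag
NARS1, chr18:57621805-57621832, minus strand: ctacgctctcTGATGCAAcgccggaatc
YARS2, chr12:32756077-32756104, minus strand: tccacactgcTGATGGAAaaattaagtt

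In AARS1, CARS1, IARS1, MARS1, GARS1 and TARS1 the element reads along the strand opposite the gene, so the printed letters are its reverse complement. NARS1 and YARS2 carry it along the gene's own strand. AARS1, CARS1, IARS1, MARS1 and TARS1 share the same 8 bases.

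Changes in RNA level were tested with edgeR's quasi-likelihood test over all 21055 genes that passed the filter, at a Benjamini-Hochberg adjusted p of 0.05, and a positive log2 fold change means higher in OE. Of the 38 genes, 14 rose and 14 fell in OE, and 10 did not pass the test. Over all genes tested, 46.1% were called, 22.6% higher and 23.4% lower. All 38 synthetase genes had a mean of at least 500 counts, and of the 10810 such genes 61.5% were called, 26.2% higher and 35.3% lower. The synthetase genes gave 73.7% called, 36.8% higher and 36.8% lower, so their share of lower calls was near that of well-measured genes and their share of higher calls was above it. The groups did not overlap in CPM for 34 of the 38 genes, against 58.7% of all genes tested and 71.1% of genes with a mean of at least 500 counts. Called changes of at least 1.5-fold were found in 11 of the 38 genes, against 22.1% of genes with a mean of at least 500 counts. On the cytosolic side 10 of 21 genes rose and 7 fell, and log2 fold changes ran from -0.65 to 1.37 around a median of 0.12. Among the mitochondrial genes 4 of 17 rose and 7 fell, with a median of -0.04 and a range of -0.80 to 0.93. That median was 0.0076 with upper-quartile scaling and lay between -0.10, without vector replicate 2, and -0.0058, without vector replicate 1. The median was 0.02 over all genes tested and -0.055 over genes with a mean of at least 500 counts. The mitochondrial median lay near the latter.

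**Figure D1:**
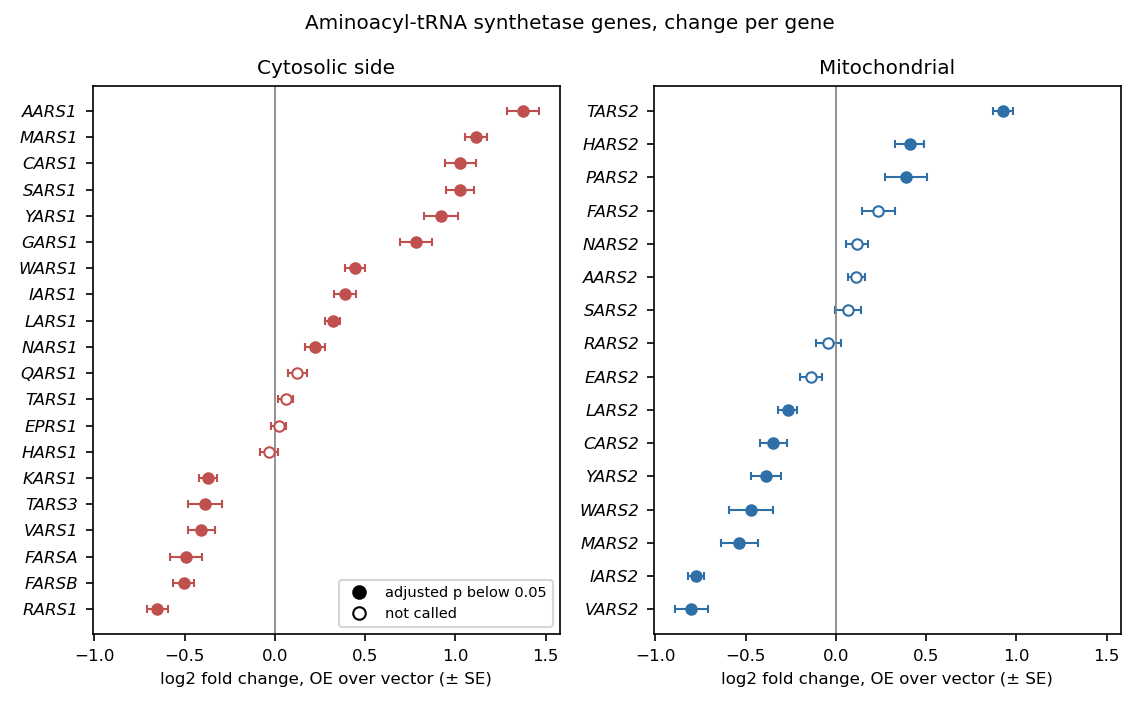
Log2 fold change of 36 of the 38 synthetase genes, OE over vector, by compartment, with bars of 1 standard error. Cytosolic genes run from -0.65 (RARS1) to 1.37 (AARS1), and mitochondrial genes from -0.80 (VARS2) to 0.93 (TARS2).

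AARS1, MARS1, CARS1, SARS1, YARS1 and GARS1 were the cytosolic genes that rose by at least 1.5-fold. AARS1, the alanine enzyme (chr16:70252295-70289543, minus strand), had 530.5, 542.3 and 545.4 CPM in OE libraries, against 225.0, 176.6 and 223.1 CPM in vector libraries. This was a 2.59-fold higher level in OE, with a log2 fold change of 1.37 ± 0.09 (SE, n = 3 libraries each, edgeR adjusted p = 1.59e-05). Without vector replicate 2, the lowest library, the log2 fold change was 1.26. MARS1, the methionine enzyme, which also loads the initiator tRNA (chr12:57475445-57517569, plus strand), had 588.5, 587.0 and 602.9 CPM in OE libraries, against 283.3, 248.9 and 289.4 CPM in vector libraries. Its log2 fold change was 1.11 ± 0.06 (edgeR adjusted p = 7.22e-06), and 1.04 without vector replicate 2. In both genes the lowest OE library stood above the highest vector library by a margin wider than the spread within either group.

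CARS1, the cysteine enzyme (chr11:3000922-3057613, minus strand), had 267.1, 268.8 and 261.8 CPM in OE libraries, against 139.1, 111.4 and 141.2 CPM in vector libraries. SARS1, the serine enzyme, whose product is also the precursor of selenocysteine tRNA (chr1:109213918-109238169, plus strand), had 330.6, 336.0 and 328.9 CPM in OE libraries, against 173.6, 142.1 and 173.3 CPM in vector libraries. Their log2 fold changes were 1.03 ± 0.09 for CARS1 (edgeR adjusted p = 5.37e-05) and 1.03 ± 0.08 for SARS1 (edgeR adjusted p = 3.14e-05). YARS1, the tyrosine enzyme (chr1:32775237-32818153, minus strand), had 452.4, 435.1 and 446.1 CPM in OE libraries, against 253.3, 197.0 and 254.8 CPM in vector libraries. GARS1, the glycine enzyme of both compartments (chr7:30594681-30634033, plus strand), had 527.2, 539.5 and 533.4 CPM in OE libraries, against 329.3, 262.2 and 338.9 CPM in vector libraries. YARS1 changed by 0.92 ± 0.09 and GARS1 by 0.78 ± 0.09 on the log2 scale (edgeR adjusted p = 1.34e-04 and 2.43e-04). In all 4 genes vector replicate 2 was the lowest library, and without it the log2 fold changes were 0.91 for CARS1, 0.93 for SARS1, 0.80 for YARS1 and 0.67 for GARS1.

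The other 4 cytosolic genes that rose did so by less than 1.5-fold. WARS1, the tryptophan enzyme, which is also induced by interferon, had 114.6, 118.9 and 124.8 CPM in OE libraries, against 88.02, 91.74 and 83.56 CPM in vector libraries, a log2 fold change of 0.44 ± 0.06. IARS1, the isoleucine enzyme, had 637.1, 640.9 and 632.2 CPM in OE libraries, against 508.8, 438.7 and 512.8 CPM in vector libraries, a log2 fold change of 0.39 ± 0.06. Without vector replicate 2 the log2 fold change of IARS1 was 0.31. LARS1, the leucine enzyme, which also senses leucine for mTORC1, had 303.2, 311.6 and 306.6 CPM in OE libraries, against 249.7, 240.2 and 248.2 CPM in vector libraries, a log2 fold change of 0.32 ± 0.04. NARS1, the asparagine enzyme, averaged 222.6 ± 6.56 CPM in OE libraries and 190.8 ± 11.2 CPM in vector libraries (SD, n = 3 each), a log2 fold change of 0.22 ± 0.05. The groups overlapped in none of these 4 genes.

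**Figure D2:**
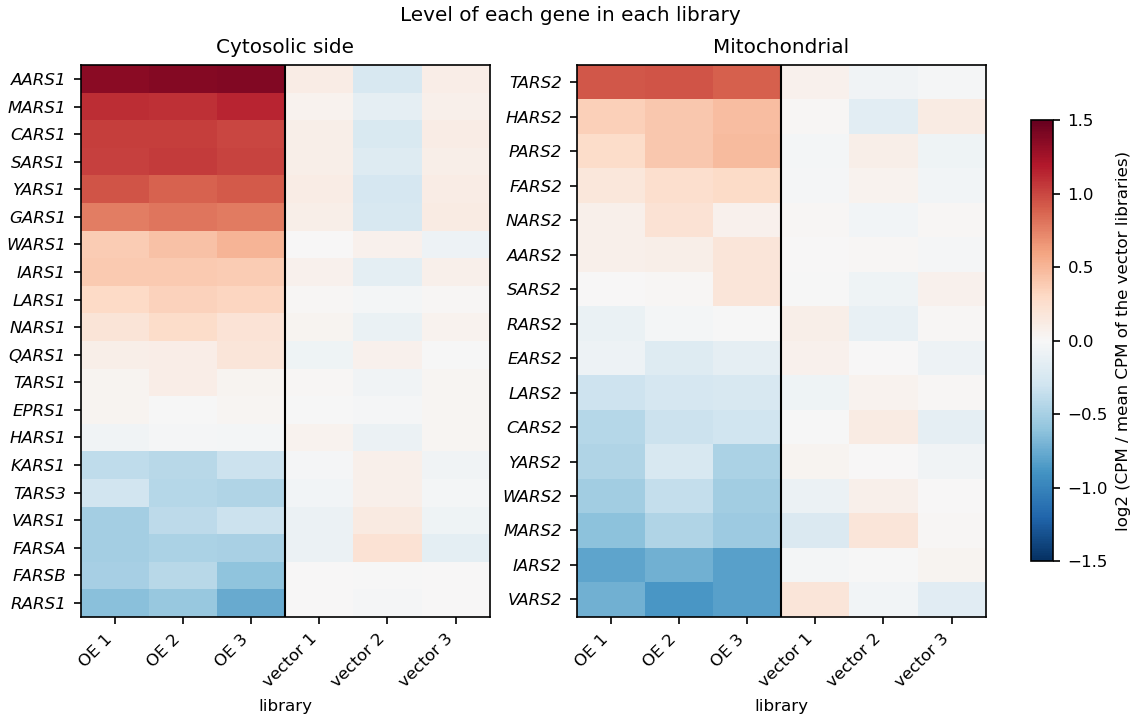
Level of 36 of the 38 synthetase genes (rows) in each library (columns, OE left of vector), coloured by the log2 of its CPM over the mean CPM of the vector libraries. AARS1 lies at 530.5 to 545.4 CPM in OE libraries and at 176.6 to 225.0 CPM in vector libraries, while IARS2 lies at 119.6 to 127.4 CPM in OE libraries and at 205.7 to 216.9 CPM in vector libraries.

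The 7 cytosolic genes that fell in OE included RARS1, FARSB, FARSA, VARS1, TARS3 and KARS1. RARS1, the arginine enzyme (chr5:168486445-168519299, plus strand), had 53.69, 55.99 and 49.15 CPM in OE libraries, against 83.73, 82.06 and 83.59 CPM in vector libraries. RARS1 fell by at least 1.5-fold, with a log2 fold change of -0.65 ± 0.06 (edgeR adjusted p = 7.37e-05). FARSA and FARSB, the catalytic and the other subunit of the phenylalanine enzyme, fell by like amounts. FARSA had 252.9, 259.7 and 257.8 CPM in OE libraries, against 339.2, 420.0 and 325.3 CPM in vector libraries, a log2 fold change of -0.49 ± 0.09. FARSB had 61.62, 65.51 and 57.30 CPM in OE libraries, against 87.26, 86.96 and 87.51 CPM in vector libraries, a log2 fold change of -0.50 ± 0.06. Vector replicate 2 was the highest library for FARSA, and without it the log2 fold change of FARSA was -0.38. It was also the highest library for other genes described below, among them VARS1, KARS1, MARS2 and CARS2. Without it their log2 fold changes were -0.34, -0.35, -0.45 and -0.29.

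VARS1, the valine enzyme, had 84.38, 91.99 and 95.98 CPM in OE libraries, against 113.4, 132.6 and 115.0 CPM in vector libraries, a log2 fold change of -0.41 ± 0.08. KARS1, the lysine enzyme of both compartments, had 212.2, 207.6 and 220.3 CPM in OE libraries, against 273.0, 290.3 and 265.6 CPM in vector libraries, a log2 fold change of -0.37 ± 0.05. KARS1 and GARS1, the 2 genes that serve both compartments, thus moved in opposite directions. TARS3, which had the lowest level per kilobase of the cytosolic side, had 14.78, 13.45 and 13.16 CPM in OE libraries, against 17.53, 18.94 and 17.64 CPM in vector libraries, a log2 fold change of -0.39 ± 0.09. QARS1, TARS1, EPRS1 and HARS1, the enzymes for glutamine, threonine, glutamate with proline, and histidine, did not pass the test, with log2 fold changes of 0.12, 0.06, 0.02 and -0.03. QARS1 passed it in 2 of its 14 alternatives, without vector replicate 2 (edgeR adjusted p = 0.0176) and with upper-quartile scaling (edgeR adjusted p = 0.0381, range over the 14 alternatives 0.0176 to 0.295).

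The 8 enzymes of the multisynthetase complex did not move as a block. MARS1, IARS1 and LARS1 rose, 3 genes fell, RARS1 and KARS1 among them, and EPRS1 and QARS1 did not pass the test. Their median log2 fold change was 0.07, against 0.22 for the 13 cytosolic genes outside the complex, of which 7 rose and 4 fell. For comparison, 26.2% of genes with a mean of at least 500 counts were called higher and 35.3% lower. The shares of lower calls in both sets were near the latter, and the difference between the sets was not tested. The scaffold genes were measured beside them. EEF1E1 had 48.13, 54.22 and 53.23 CPM in OE libraries, against 29.27, 33.82 and 27.95 CPM in vector libraries, a log2 fold change of 0.77 ± 0.09 (edgeR adjusted p = 2.13e-04). AIMP2 rose by 0.32 ± 0.09 on the log2 scale (edgeR adjusted p = 0.0172, range over its 14 alternatives 2.46e-04 to 0.0653, 6 of them above the threshold). AIMP1 averaged 103.0 ± 4.59 CPM in OE libraries and 96.65 ± 1.55 CPM in vector libraries, and did not pass the test.

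Of the 17 mitochondrial genes, 7 fell. VARS2, the valine enzyme (chr6:30908242-30926459, plus strand), had 40.81, 36.82 and 38.15 CPM in OE libraries, against 76.26, 65.53 and 59.99 CPM in vector libraries. IARS2, the isoleucine enzyme (chr1:220094102-220148041, plus strand), had 121.8, 127.4 and 119.6 CPM in OE libraries, against 205.7, 208.8 and 216.9 CPM in vector libraries. These were the mitochondrial genes that fell by at least 1.5-fold, VARS2 with a log2 fold change of -0.80 ± 0.09 (edgeR adjusted p = 2.35e-04) and IARS2 with -0.78 ± 0.05 (edgeR adjusted p = 1.11e-05). MARS2, the methionine enzyme, had 25.24, 28.17 and 26.34 CPM in OE libraries, against 33.05, 43.53 and 38.95 CPM in vector libraries, a log2 fold change of -0.54 ± 0.10. WARS2, the tryptophan enzyme, had 7.12, 7.95 and 7.10 CPM in OE libraries, against 9.63, 10.8 and 10.3 CPM in vector libraries, a log2 fold change of -0.47 ± 0.12. WARS2 had the lowest level per kilobase of the 38 genes, and its call was lost without OE replicate 1 or OE replicate 3 (edgeR adjusted p up to 0.0526, range over its 14 alternatives 4.38e-04 to 0.0526).

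YARS2, the tyrosine enzyme, had 22.88, 26.34 and 22.34 CPM in OE libraries, against 32.08, 31.38 and 30.00 CPM in vector libraries, a log2 fold change of -0.38 ± 0.08. CARS2, the cysteine enzyme, had 45.88, 49.42 and 50.48 CPM in OE libraries, against 61.70, 67.32 and 56.55 CPM in vector libraries, a log2 fold change of -0.35 ± 0.07. LARS2, the leucine enzyme, had 64.05, 66.89 and 67.04 CPM in OE libraries, against 75.74, 82.21 and 80.36 CPM in vector libraries, a log2 fold change of -0.27 ± 0.05. The groups did not overlap in any of these 3 genes.

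The 4 mitochondrial genes called higher in OE included TARS2, HARS2 and PARS2. TARS2, the threonine enzyme (chr1:150487364-150507609, plus strand), had 58.34, 58.90 and 57.06 CPM in OE libraries, against 32.08, 29.48 and 30.24 CPM in vector libraries, a log2 fold change of 0.93 ± 0.06 (edgeR adjusted p = 1.18e-05). It alone among the mitochondrial genes rose by at least 1.5-fold. HARS2, the histidine enzyme, had 43.18, 44.48 and 46.32 CPM in OE libraries, against 33.91, 30.20 and 36.75 CPM in vector libraries, a log2 fold change of 0.41 ± 0.08. Without vector replicate 2, the lowest library, the log2 fold change of HARS2 was 0.33. PARS2, the proline enzyme, averaged 12.25 ± 0.872 CPM in OE libraries and 9.36 ± 0.542 CPM in vector libraries (SD, n = 3 each). The call of PARS2 was marginal. It (edgeR adjusted p = 0.0242, range over its 14 alternatives 0.00442 to 0.0923) lost its call in 6 alternatives, among them without OE replicate 2 or 3 or vector replicate 1 or 3. The count of mitochondrial genes called higher was 2 rather than 4 without OE replicate 2 or 3 or vector replicate 1 or 3. FARS2, NARS2, AARS2, SARS2, RARS2 and EARS2, the enzymes for phenylalanine, asparagine, alanine, serine, arginine and glutamate, did not pass the test, with log2 fold changes between -0.14 (EARS2) and 0.24 (FARS2). AARS2 and NARS2 passed it with upper-quartile scaling (edgeR adjusted p = 0.0325 and 0.0416), within ranges of 0.0325 to 0.275 and 0.0416 to 0.425 over their 14 alternatives. FARS2 passed it in 5 of its 14 alternatives (edgeR adjusted p = 0.0628, range 0.0338 to 0.171).

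The mitochondrial genes split by catalytic class. Of the 9 class I genes, 7 fell and none rose, and their fitted changes ran from -0.80 to -0.04 on the log2 scale with a median of -0.38. Of the 8 class II genes, 4 rose and none fell, and theirs ran from 0.07 to 0.93 with a median of 0.20. On the cytosolic side 6 of 9 class I genes rose and 2 fell, with a median of 0.39, while 4 of 11 class II genes rose and 5 fell, with a median of -0.03. EPRS1 carries both folds and stayed out of this count. Of genes with a mean of at least 500 counts, 26.2% were called higher and 35.3% lower. The 4 rises of mitochondrial class II are not all firm. PARS2 lost its call in 6 of its 14 alternatives, and 2 mitochondrial genes were called higher with no filter or with the replicate block. The difference between the classes was not tested. With upper-quartile scaling RARS2, the class I gene nearest 0, stood at 0.01 rather than below 0.

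**Figure D3:**
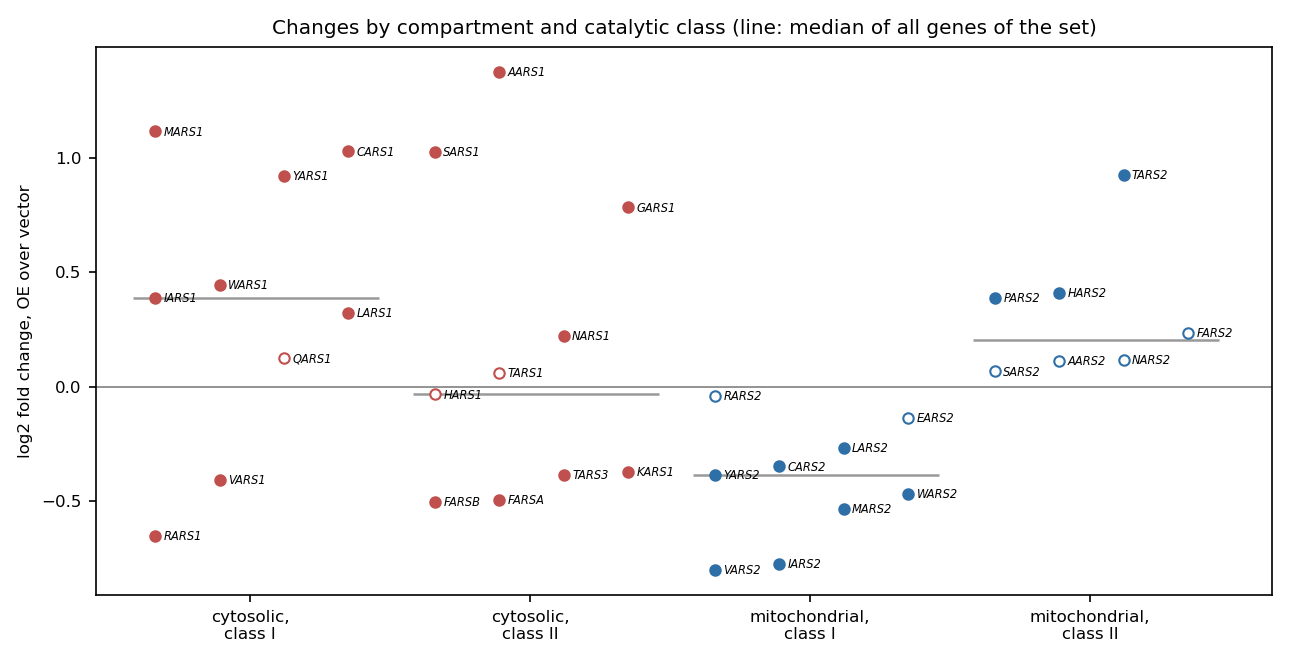
Log2 fold change, OE over vector, of synthetase genes by compartment and catalytic class, with the median over all genes of each set as a line and filled points for called genes. All 9 mitochondrial class I genes lie below 0 and the mitochondrial class II genes above 0, with upper-quartile scaling moving RARS2 to 0.01.

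For 17 amino acids a cytosolic and a mitochondrial gene could be set side by side, giving 18 pairings because both subunits of the phenylalanine enzyme were set beside FARS2. EPRS1 was set beside EARS2 for glutamate and beside PARS2 for proline. For methionine, cysteine, tyrosine, isoleucine, tryptophan and leucine, the cytosolic gene rose and the mitochondrial gene fell. Their cytosolic genes are the 6 class I genes that rose, and their mitochondrial genes are the class I genes that fell, VARS2 aside. This pattern and the class split above therefore rest on the same genes. Of well-measured genes, 26.2% were called higher and 35.3% lower. For valine both genes fell, and no amino acid had both genes rise. The tryptophan pair also loses its WARS2 call without OE replicate 1 or 3.

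The pairs are described by the log2 ratio of cytosolic to mitochondrial level per kilobase of transcript. Of the 18 ratios, 11 were higher and 7 lower in OE, the lower ones including histidine, proline, arginine, threonine and both phenylalanine pairings. The methionine ratio was 4.60, 4.44 and 4.57 in OE libraries, against 3.16, 2.57 and 2.95 in vector libraries. The cysteine ratio was 2.03, 1.93 and 1.86 in OE libraries, against 0.66, 0.21 and 0.80 in vector libraries. The isoleucine ratio was 2.00, 1.94 and 2.02 in OE libraries, against 0.92, 0.68 and 0.85 in vector libraries. These 3 ratios were higher in every OE library than in any vector library. That separation is not particular to them, since the groups did not overlap in any of the 18 ratios. Single genes with a mean of at least 500 counts did not overlap in 71.1% of cases, and no share over other gene pairs was computed. The threonine ratio was lower in OE, at 1.26, 1.30 and 1.28 in OE libraries, against 2.10, 2.15 and 2.19 in vector libraries. TARS1 itself did not pass the test, so the threonine difference lay in TARS2. The difference of the log2 fold changes, cytosolic minus mitochondrial, ran from 1.65 for methionine through 1.26 for alanine and 0.96 for serine to -0.61 for arginine and -0.87 for threonine. Asparagine, at 0.10, stood closest to no difference.

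**Figure D4:**
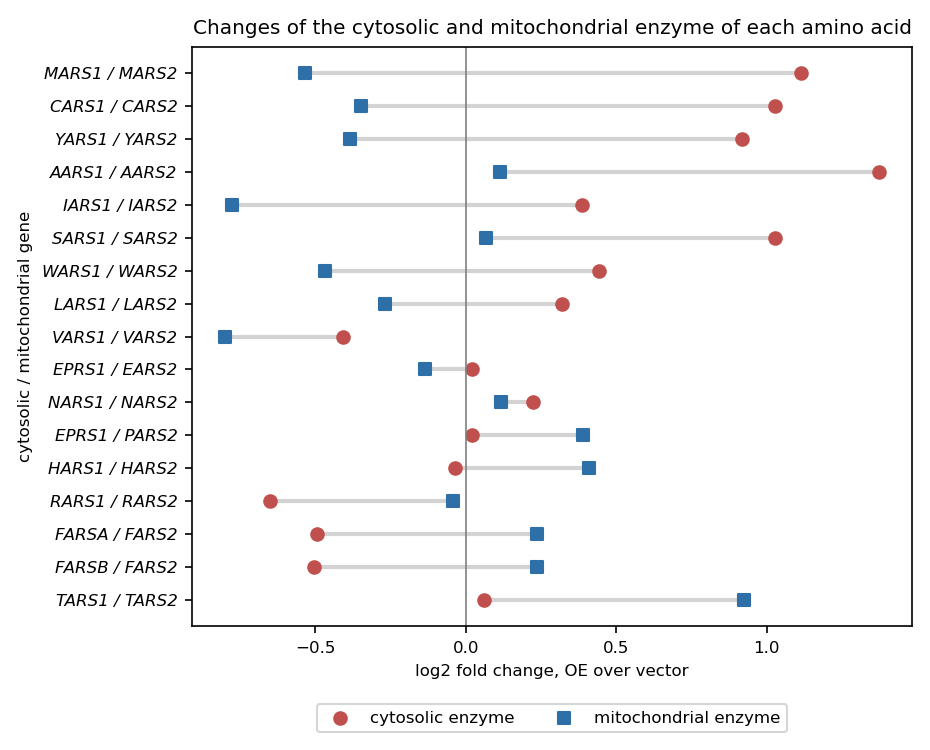
Log2 fold change, OE over vector, of the cytosolic (circles) and mitochondrial (squares) gene of 16 amino acids, ordered by the change of the cytosolic relative to the mitochondrial gene. The methionine pair is widest on the cytosolic side (1.11 and -0.54) and the threonine pair on the mitochondrial side (0.06 and 0.93).

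Glutamine has no mitochondrial synthetase in this list, since mitochondrial glutamine tRNA is made from glutamate-loaded tRNA by the transamidation enzyme of QRSL1, GATB and GATC. All 3 genes fell, where 35.3% of genes with a mean of at least 500 counts were called lower. MTFMT, the initiator formylation gene of the same list, did not pass the test, with a log2 fold change of 0.07. QRSL1 had 46.26, 46.91 and 44.58 CPM in OE libraries, against 57.87, 54.98 and 57.79 CPM in vector libraries, a log2 fold change of -0.31 ± 0.05. GATC fell by 0.24 and GATB by 0.27 on the log2 scale, and GATB lost its call in 1 of its 14 alternatives (edgeR adjusted p = 0.0168, range 0.00355 to 0.0709). EARS2, which supplies the glutamate-loaded tRNA, had 44.46, 41.06 and 42.88 CPM in OE libraries, against 49.25, 47.25 and 44.64 CPM in vector libraries, and did not pass the test.

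Summed per kilobase of transcript, the cytosolic side stood at 1858 ± 13.1 CPM per kilobase in OE libraries and 1425 ± 36.1 in vector libraries (SD, n = 3 each). The mitochondrial genes summed to 269.8 ± 5.56 CPM per kilobase in OE libraries and 298.5 ± 1.96 in vector libraries. The ratio of the 2 sums was 6.99, 6.81 and 6.86 in OE libraries, against 4.83, 4.61 and 4.88 in vector libraries, and the groups did not overlap. These sums follow a few abundant genes and do not describe a shift of a whole compartment. AARS1, MARS1, CARS1, SARS1, YARS1 and GARS1 together rose by more than the cytosolic sum did, so the rest of that side fell on net. In the mitochondrial sum IARS2 moved most, from 59.12 CPM per kilobase in vector to 34.53 in OE. The sum of the 8 complex enzymes was 699.1 ± 6.59 CPM per kilobase in OE libraries and 601.1 ± 11.4 in vector libraries. MARS1 alone rose by more than this sum did, and 3 of the 8 genes fell, so the complex did not rise as a whole. The most abundant members per kilobase were MARS1 at 204.1 and GARS1 at 202.5 in OE libraries, against 94.27 and 117.7 in vector libraries. FARSA led in vector libraries, at 141.6 CPM per kilobase in OE and 199.3 in vector. FARSA stood far above FARSB, which lay at 18.25 in OE and 25.90 in vector, although both subunits form the same enzyme.

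Among the 16 cytosolic genes with a promoter window, the 7 with the core element TGATGNAA had a median log2 fold change of 0.78, and 6 of them rose and none fell. TARS1, which carries the longer element TGATGNAAT, was the gene of these that did not pass the test, with 220.7, 229.1 and 219.7 CPM in OE libraries, against 217.2, 207.0 and 218.4 CPM in vector libraries. The 9 without the core had a median of -0.03, and 2 of them rose (SARS1 and WARS1) and 4 fell. Beside them, 26.2% of genes with a mean of at least 500 counts were called higher and 35.3% lower, and the calls of the 9 genes lay near these shares. Cytosolic genes with no window are in neither set. They include YARS1 and LARS1, which rose, and VARS1 and TARS3, which fell. The mitochondrial gene with the core, YARS2, fell. No test was made of this split. ATF4 mRNA stood at 701.6, 710.4 and 693.8 CPM in OE libraries, against 518.5, 447.2 and 513.8 CPM in vector libraries, a log2 fold change of 0.51 ± 0.06 (edgeR adjusted p = 2.90e-04). Vector replicate 2 was again the lowest library, and without it the log2 fold change of ATF4 was 0.43. Whether ATF4 has a part in the synthetase changes was not tested.

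Changes were also set beside those of the surrounding chromosome, as the median log2 fold change of the 20 nearest tested genes on each side (21 in all for TARS3). The neighbours of the 6 cytosolic genes that rose by at least 1.5-fold had medians of -0.03 (CARS1) to 0.26 (GARS1), and those of AARS1 and MARS1 stood at 0.07 and 0.08. The neighbours of TARS2 stood at -0.05. Neighbours of VARS2 stood at 0.31 while VARS2 fell, and neighbours of IARS1 at -0.45 while IARS1 rose. MARS2 was different, with neighbours at -0.49 beside its own -0.54, and the part of the neighbourhood in its change was not tested.

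**Figure D5:**
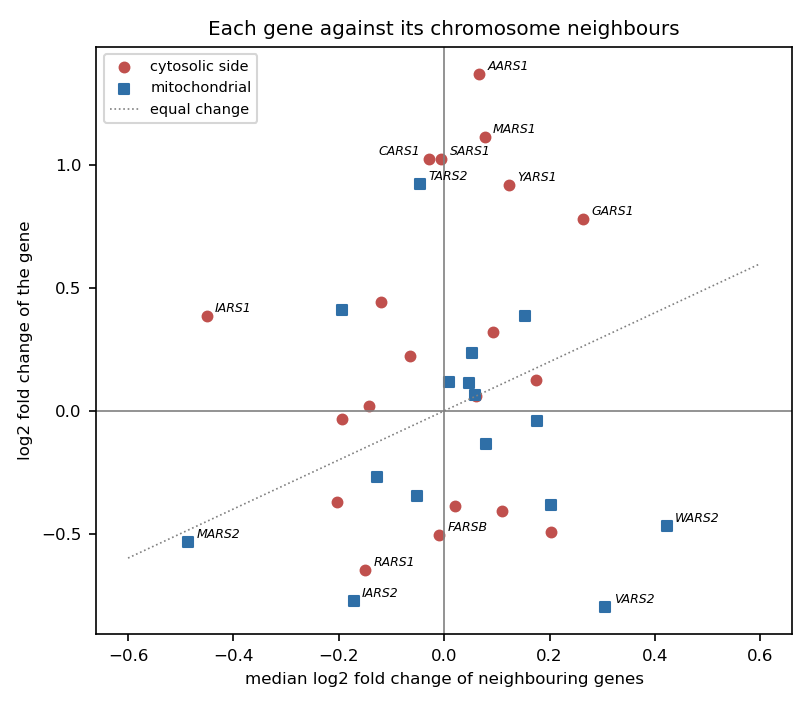
Log2 fold change of 36 synthetase genes, OE over vector, against the median log2 fold change of its tested chromosome neighbours, with a line of equality. AARS1 stands at 1.37 with neighbours at 0.07, and MARS2 at -0.54 with neighbours at -0.49.

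Several of these genes share exonic bases with another gene, and the sources used here do not state whether reads were counted by strand. MARS1 shares 519 bases with ARHGAP9 and 355 bases with DDIT3, the stress factor CHOP, both on the opposite strand. ARHGAP9 fell (log2 fold change -0.44 ± 0.11), with 32.6 CPM in OE libraries and 44.1 CPM in vector libraries. DDIT3 rose (log2 fold change 1.26 ± 0.14), with 12.7 CPM in OE libraries and 5.30 CPM in vector libraries. YARS1 shares 396 bases with S100PBP, whose log2 fold change was 0.50. HARS1 and HARS2, divergent neighbours on chromosome 5, share 437 bases, and VARS2 shares 1858 bases with GTF2H4 on the same strand. GTF2H4 had a log2 fold change of -0.26 and did not pass the test. Also on the same strand, SARS2 shares 1492 bases with another protein-coding gene, and HARS2 shares 152 bases with ZMAT2, which rose by 0.30 on the log2 scale. GARS1 shares 99 bases with the divergent transcript GARS1-DT, which rose by 0.74. On the opposite strand, KARS1 shares 176 bases with TERF2IP (log2 fold change -0.24) and EARS2 shares 370 bases with UBFD1 (-0.43). SARS2 likewise shares 349 bases with MRPS12 (-0.50), and AARS2 shares 235 bases with TMEM151B (1.04). These partners were called, and the remaining ones were not called or not tested. If reads were counted without strand, those of the opposite-strand stretches cannot be told apart. Part of each such value is therefore uncertain, as it is for the same-strand overlaps of VARS2, SARS2 and HARS2.

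Of 52 tested genes for other steps around tRNA charging, 11 rose and 17 fell, and the median of their log2 fold changes was -0.13. These shares, 21.2% higher and 32.7% lower, stand against 22.6% and 23.4% of all genes tested, and lay near the 26.2% and 35.3% of genes with a mean of at least 500 counts. In the group for sensing uncharged tRNA and eIF2 signalling, 5 of 13 rose and 5 fell. PPP1R15A, the inducible subunit of the eIF2 phosphatase, had 33.54, 40.72 and 38.76 CPM in OE libraries, against 21.60, 19.31 and 21.19 CPM in vector libraries, a log2 fold change of 0.86 ± 0.09. EIF2AK4, the GCN2 kinase, had 81.33, 84.86 and 86.41 CPM in OE libraries, against 106.0, 96.34 and 109.5 CPM in vector libraries, a log2 fold change of -0.30 ± 0.06. On the log2 scale EIF2B1, a subunit of the eIF2 exchange factor, rose by 0.38, while EIF2B4, another of its subunits, fell by 0.61, and EIF2S1, the eIF2 subunit that is phosphorylated, fell by 0.45.

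In tRNA maturation 2 of 15 genes rose and 7 fell. POP1, a protein subunit of RNase P and RNase MRP, had 25.27, 24.02 and 24.76 CPM in OE libraries, against 61.93, 70.52 and 61.72 CPM in vector libraries, a log2 fold change of -1.39 ± 0.07 (edgeR adjusted p = 5.18e-06). On the log2 scale RPP40, another subunit, fell by 0.66, and SSB, the La protein that binds the ends of new tRNA transcripts, fell by 0.65, while POP5, a further subunit, rose by 0.50 and XPOT, the tRNA exporter, by 0.32. The 3 genes for editing and proofreading of misloaded tRNA did not pass the test. Of the 5 cytosolic elongation factor genes EEF2 fell, by 0.35 on the log2 scale, and 4 did not pass the test. Of 9 mitochondrial translation factor genes, TUFM and MTIF3, an elongation and an initiation factor, rose by 0.34 and 0.49, and MRRF, the ribosome recycling factor, fell by 0.48.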

How the data were processed

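The deposited table holds 1 estimated count per gene symbol and library. The authors' notes name build hg38, fastp 0.23.2, STAR 2.7.10a, StringTie and DESeq2, per the submitters' processing notes; the role of each tool, the annotation and the strand setting are not given in the sources used here. The values are whole numbers, called estimated counts because low values favour multiples of 4. Total RNA went into TruSeq libraries, per the labels' protocols.

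Genes were filtered with filterByExpr, scaled by TMM and tested between OE and vector with edgeR 4.0.16 in R 4.3.3 (group only, two-sided, Benjamini-Hochberg over 21055 genes, threshold 0.05). The SE of a log2 fold change was derived from the test, as its absolute value divided by the square root of the quasi-likelihood F statistic. CPM values use TMM-scaled totals, and no interval of counting error is given for them. Levels between genes are per kilobase of GENCODE 29 transcript. The procedure was tested on simulated counts. Alternatives used DESeq2 1.42.0, limma 3.58.1, other scalings and filters, values divided by 4, a replicate block and each library left out. Same-numbered libraries of the groups had correlated deviations of 0.007, 0.011 and 0.012 over 13973 genes, below 0.1, so numbers were not taken as pairs.

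Of the synthetase genes, 2 are not reported here singly and enter only the counts, medians and sums; related genes named are the up to 3 risen and 3 fallen of each list with the smallest adjusted p and a mean of at least 50 counts. AIMP1 and MTFMT were named to complete their lists. CD2, CD7 and TRBC1 were named after their values were seen. ARHGAP9, DDIT3, S100PBP, GTF2H4, ZMAT2, GARS1-DT, TERF2IP, UBFD1, MRPS12 and TMEM151B were named for overlap. The genes and lists were chosen with earlier results of these data known, so no test over a list was made.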

Additional observations from a re-analysis of the deposited data

How the results depend on the processing

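Of the 38 genes, 28 kept their direction and their side of the threshold in all 14 alternatives. Called changes of at least 1.5-fold numbered 6 cytosolic genes higher and 2 lower, and 1 mitochondrial gene higher and 2 lower. The count of mitochondrial genes called higher, 4, was 2 with no filter and 7 with upper-quartile factors, and ran from 2 to 5 when each library was left out. With the replicate block it was 2, PARS2 being among those lost, and 8690 rather than 9705 of all genes were called. Every library correlated best with the library of its own number, but at 0.012 or less, so whether the numbers pair libraries was not settled. With upper-quartile factors, which moved the median of all genes by 0.05, the cytosolic median log2 fold change was 0.17 and the mitochondrial 0.0076. When each library was left out, the cytosolic median ran from 0.084 to 0.15 and the mitochondrial from -0.10 to -0.0058. Signs reversed in genes that never passed the test: EPRS1 without vector replicate 2 (-4.38e-04, in a range of up to 0.033 when each library was left out), and HARS1 (0.015) and RARS2 (0.0076) with upper-quartile factors. The causes of these shifts were not tested. With 3 libraries a group, small changes are the least certain, as are genes of low count such as WARS2 and PARS2.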
